A study of Mus musculus with 8 samples.

Results

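The genes described here encode the proteasome: 50 mouse genes whose symbol consists of Psm, a letter from a to g and a number, out of 37208 genes and unnamed transcripts with a probe on the array. They were found through the transcript accession of each probe, and 61 probes matched. Where a gene had several probes (11 genes), the brightest one that was not saturated on any of the 8 arrays stood for it. Of the 50 genes, 48 passed the filter on dim probes. The exceptions were Psma8, the testis form of a core subunit, whose probe was well above background on 1 array, and Psmb11, the thymus form, whose probe was so on 0 arrays. All 48 others were well above background on 8 of 8 arrays. Psmc3ip, a meiotic recombination factor, and Psme3ip1, a protein that binds a proteasome activator, entered by their symbols alone and are not subunits.

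The RNA came from hippocampus of male C57BL/6J mice obtained at 11 weeks of age, and the question was how mild treadmill running and dietary astaxanthin, a carotenoid antioxidant from a green alga, affect gene expression there. The mice formed 4 groups of 8. The AX+ME group combined mild exercise with astaxanthin, the ME group combined mild exercise with placebo, the AX group was sedentary and received astaxanthin, and the SED group was sedentary and received placebo. Astaxanthin and placebo were given as a powder mixed into the chow at 0.5% by weight, and the astaxanthin powder contained 2% of the compound. Each group was represented by 2 RNA samples, one carrying the dye Cy3 (replicate 1) and one carrying Cy5 (replicate 2), and all 8 samples were hybridised to 1 slide of oligonucleotide arrays, each on an array of its own. How the RNA of 8 mice became 2 samples was not stated, so p-values measure the spread between these samples, which may be technical. All 8 markers of hippocampal neurons on the list, such as Prox1, Neurod6, Wfs1 and Spink8, were well above background on 8 of 8 arrays. Since this was bulk tissue, fewer cells of a type and less RNA per cell cannot be told apart.

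The 26S proteasome is the protease that degrades ubiquitin-tagged proteins. Its barrel-shaped 20S core consists of stacked rings of alpha and beta subunits, and 3 of the beta subunits carry the catalytic sites. The 19S regulatory particle on the ends of the core holds a ring of ATPases that unfolds substrates, receptors that bind ubiquitin and a lid with the deubiquitinase. Interferon-induced subunits can replace the catalytic ones to form the immunoproteasome, which in brain is mostly associated with microglia. Proteasome genes are known to be controlled by NRF1 (the product of Nfe2l1), which binds antioxidant response elements, and NRF2 can act on some of them through the same element.

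Levels are given as log2 of the processed signal divided by the 75th percentile of that array, so that 0 is the 75th percentile and a difference of 1 is a doubling. A probe's level says nothing about another probe's, because probes differ in affinity. Differences were tested with limma over all 27192 genes and transcripts that passed the filter, with the dye as a term. A gene was counted as changed when its Benjamini-Hochberg adjusted p was under 0.05. The 75th percentile of the processed signal lay between 1240 and 2043 across the arrays, and 63.2% to 76.2% of spots were well above background. Proteasome probes were bright: with all genes tested split by mean level into 4 classes of equal size, 33 of 48 fell in the brightest class, among them 28 of the 31 constitutive subunits of the core and regulatory particle. Psma2 was saturated on 2 arrays, Psmb3 on 1, Psmb4 on 2 and Psmb6 on 5, so their differences may be understated.

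The place of a probe on the array has to be given beside each result, because both SED arrays were uneven in columns 1 to 69. The Psme1 probe, for a subunit of the PA28 activator, was printed in 10 spots, 6 of them in columns below 70 and 4 from column 70 on. Its processed signal ranged over its 10 spots from 9348 to 13156 on the SED replicate 1 array and from 15197 to 24148 on the SED replicate 2 array. The coefficient of variation was 12.1% and 18.5% on these arrays and lay between 1.12% and 2.51% on each of the other 6 arrays. On SED replicate 2 the 4 spots from column 70 on were all dimmer than the 6 spots below it.

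**Figure D1:**
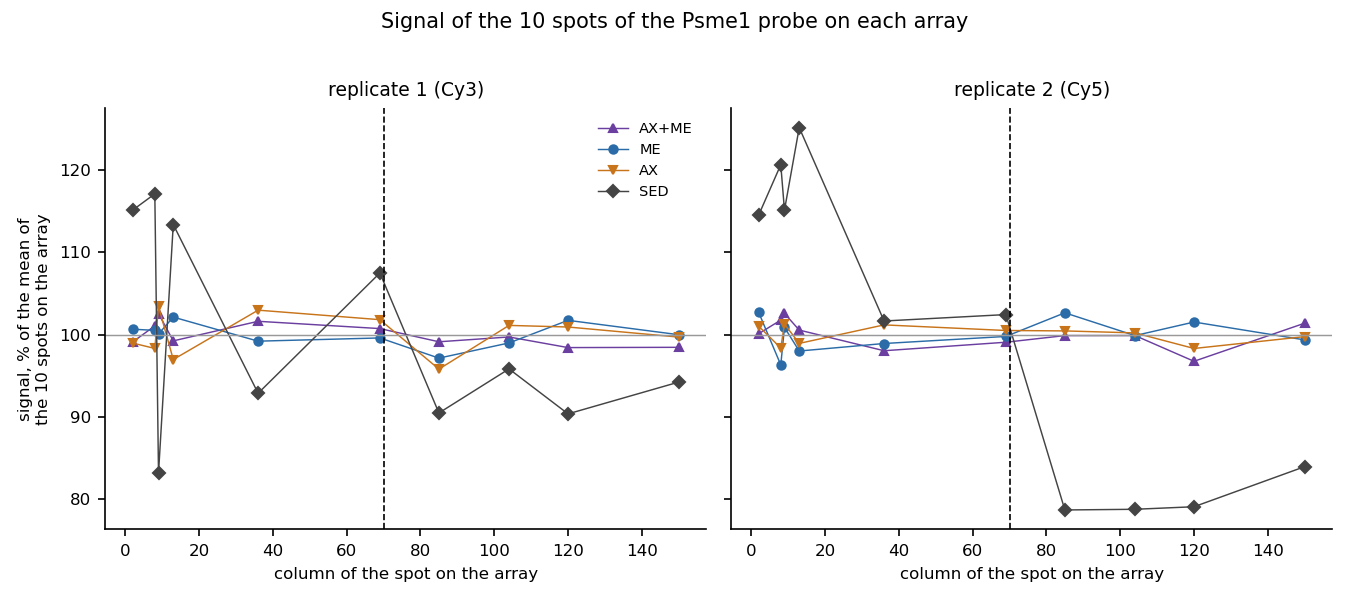
Signal of each of the 10 spots of the Psme1 probe, in percent of the mean of the 10 spots on that array, against the column of the spot (dashed line at column 70), for the 4 arrays of each dye. The spots of the AX+ME, ME and AX arrays stay close to 100% with coefficients of variation of 1.12% to 2.51%, while those of the SED arrays spread with 12.1% and 18.5%.

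The other proteasome probes showed the same difference between the parts of the array. Each sample's level was set against the mean of the other 3 arrays of its dye. For the 21 members in columns below 70 this deviation had an SD of 0.451 in SED replicate 1 and of 0.509 in SED replicate 2, and 12 and 14 of the 21 lay beyond 0.25 in either direction. In the other 6 samples its SD over the same 21 members lay between 0.147 and 0.187. For the 26 members from column 70 on it was 0.0967 and 0.112 in the SED samples and at most 0.0886 in the others. The members beyond 0.25 there in SED replicate 2 were Psmd6 in column 72 (0.38) and Psmb8 in column 75 (0.34), both next to the uneven columns, and in SED replicate 1 it was Psmb10 in column 88 (0.27). The 2 SED samples also disagreed with each other in the first columns: 3 of the 21 members there (Psma2, Psmb2 and Psmb4) differed by more than 1 between them. No member differed that much between the samples of any other group. The scanner software multiplies each spot by a factor that levels the array, and at these probes that factor reached 2.07 on SED replicate 2. From column 70 on the SED arrays were levelled unlike the others too. The median factor of spots there was 0.930 and 0.855 on them and 0.981 to 0.989 on the others. Over the 26 members there, the deviation correlated with the log2 factor at Pearson r = 0.77 in SED replicate 2. It was 0.63 in ME replicate 2 and -0.07 to 0.34 in the others.

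**Figure D2:**
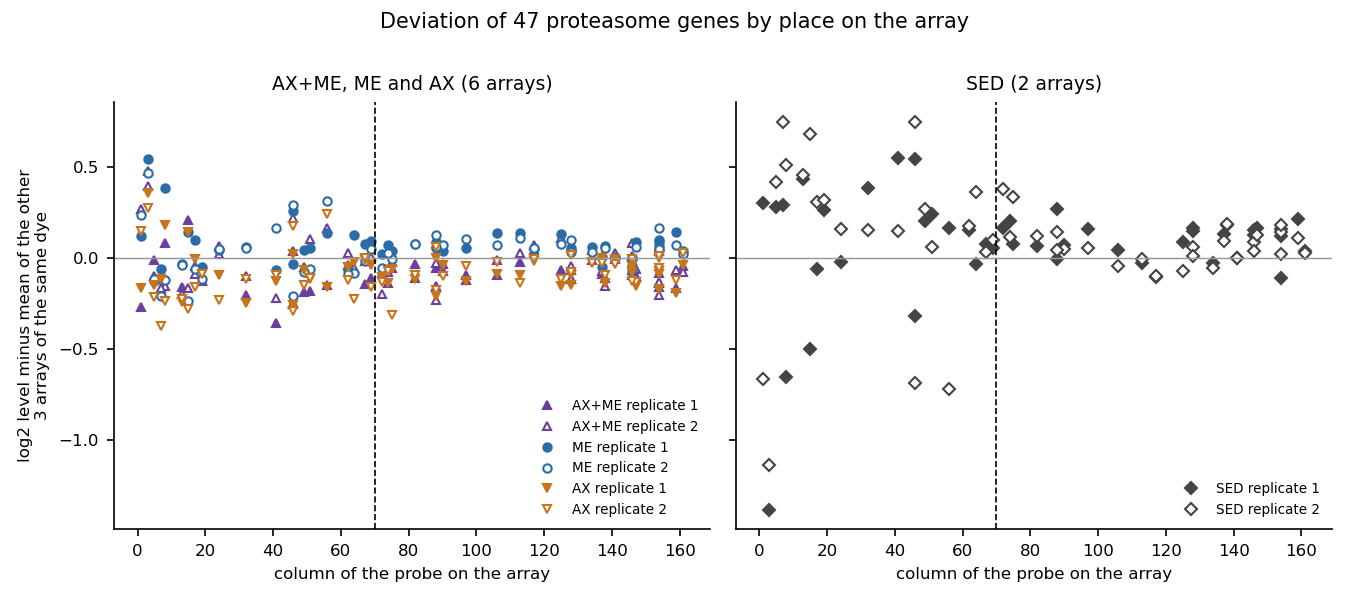
Deviation of each proteasome gene from the mean of the other 3 arrays of the same dye (log2) against the column of its probe (dashed line at column 70), for 47 members with spots on one side of that line, in the 6 AX+ME, ME and AX samples on the left and the 2 SED samples on the right. SED samples scatter widely below column 70 (SD 0.451 and 0.509) and little from column 70 on (SD 0.0967 and 0.112).

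Psmc5, one of the 6 ATPases of the regulatory particle, had the largest differences among the members. Its level was 4.65 and 4.65 in the AX+ME samples, 4.70 and 4.70 in the ME samples and 4.56 and 4.56 in the AX samples, against 3.25 and 3.50 in the SED samples. The 6 samples of the other groups lay close together, and both SED samples lay far below them. Psmc5 was 2.42-fold higher in AX+ME than in SED (log2 difference 1.27 ± 0.085, SE, adjusted p = 0.0116). The fold was 2.50 for ME against SED (1.32 ± 0.085, adjusted p = 0.0113) and 2.27 for AX against SED (1.18 ± 0.085, adjusted p = 0.0147). These 3 comparisons share the SED samples. Its only probe lay in column 3, where the levelling factor was 1.24 and 1.51 on the SED arrays and 1.03 to 1.08 on the others. Without that levelling the 3 differences were 1.66, 1.67 and 1.57. Every call for Psmc5 against SED was lost when any 1 of the AX+ME, ME or AX samples was left out (adjusted p between 0.0665 and 0.182), while the differences stayed between 1.14 and 1.36.

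Psmd10, an assembly chaperone of the regulatory particle also known as gankyrin, was lower in all 3 groups than in SED. Its level was 0.02 and 0.15 in AX+ME, 0.19 and 0.17 in ME and 0.01 and 0.11 in AX, against 0.62 and 0.89 in SED. Both SED samples lay above the 6 others. The log2 differences were -0.67 ± 0.082 for AX+ME (SE, adjusted p = 0.0309), -0.57 ± 0.082 for ME (adjusted p = 0.0493) and -0.69 ± 0.082 for AX (adjusted p = 0.0338). A probe for the same gene in column 92 gave -0.13, 0.09 and -0.03 for the same comparisons, whereas the probe used lies in column 46. Without levelling the probe used gave -0.26, -0.13 and -0.29, and none passed the test.

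Psmd4, the regulatory particle's subunit that binds ubiquitin chains, was lower as well. Its level was 4.97 and 4.78 in AX+ME, 5.06 and 4.90 in ME and 4.91 and 4.76 in AX, against 5.41 and 5.27 in SED. The log2 difference was -0.47 ± 0.048 for AX+ME against SED (SE, adjusted p = 0.0238), -0.36 ± 0.048 for ME (adjusted p = 0.0440) and -0.51 ± 0.048 for AX (adjusted p = 0.0224). Its probe lies in column 13, where the levelling factor was 1.24 and 1.60 on the SED arrays and 1.02 to 1.04 on the others. Without levelling the differences were -0.01, 0.06 and -0.06, none of which passed the test.

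Psmd3, a structural subunit of the lid, passed the test in AX+ME alone, which does not show that the groups differ in it. Its level was 4.98 and 4.78 in AX+ME, 5.03 and 4.79 in ME and 5.01 and 4.81 in AX, against 5.27 and 5.11 in SED. The log2 difference of AX+ME from SED was -0.31 ± 0.051 (SE, adjusted p = 0.0439), and those of ME (-0.28, adjusted p = 0.0703) and AX (-0.28, adjusted p = 0.0603) were of like size. Its probe lies in column 19, and without levelling the AX+ME difference was 0.32, in the other direction (adjusted p = 0.139).

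Counted over the 48 members tested, 4 changed in AX+ME against SED (1 higher and 3 lower), beside 7.71% of all genes tested (3.77% higher and 3.94% lower). In ME against SED 3 changed (1 higher and 2 lower), beside 2.94% of all genes (1.9% higher and 1.04% lower). In AX against SED 3 changed (1 higher and 2 lower), beside 3.97% (2.16% higher and 1.81% lower). The members called were Psmc5, Psmd10 and Psmd4 each time, with Psmd3 added in AX+ME. The probes used for all 4 lie in columns below 70, and with probes from column 70 on alone 0 members passed the test in any of the 8 comparisons made. Psmc5, Psmd4 and Psmd3 have no probe there, so this setting drops them. The share of all genes called at this setting is not given here, so the 0 is not a result about the members. Of all genes called in the comparisons with SED, 1360 of 2097, 664 of 800 and 844 of 1080 lay in columns below 70, which held 11279 of the 27192 genes tested. The member counts depended on single samples. They rose without SED replicate 1, for AX+ME and AX also without SED replicate 2, and fell without any 1 sample of the other 3 groups. Such a fit leaves a group with 1 sample, and the share of all genes called then is not given here. A change in these counts is therefore not a result about the members. At an unadjusted p under 0.05, 22, 9 and 19 members passed, beside 32.6%, 24% and 27.4% of all genes.

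**Figure D3:**
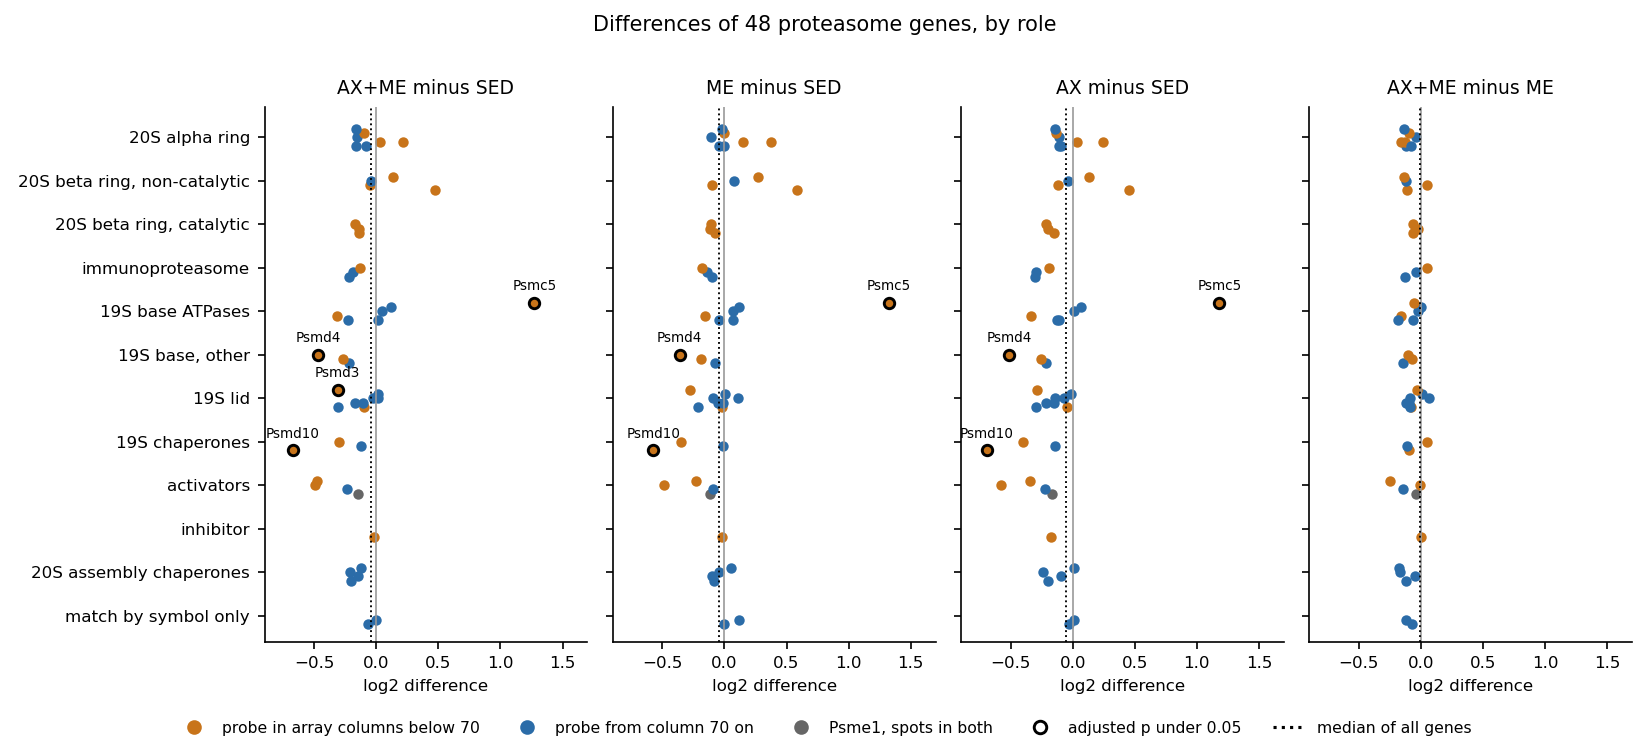
Log2 differences of the 48 members in 4 comparisons, by role, with probes in columns below 70 in orange, probes from column 70 on in blue and genes with an adjusted p under 0.05 outlined and named. The dotted line marks the median of all genes tested. The outlined genes, Psmc5, Psmd10, Psmd4 and Psmd3, are all orange.

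The 7 alpha ring subunits, which form the gated entrance of the core, held 0 called genes in any comparison. Psma5, from column 70 on, had 3.65 and 3.63 in AX+ME, 3.76 and 3.79 in ME and 3.62 and 3.68 in AX, against 3.83 and 3.76 in SED. Its AX+ME and AX samples all lay below those of ME and SED. The others from column 70 on, Psma1, Psma3 and Psma6, did not separate so. AX replicate 2 lay above ME replicate 1 for Psma1 (4.249 and 4.202) and Psma3 (4.819 and 4.800). For Psma6 AX replicate 1 (3.414) lay above SED replicate 2 (3.411). The median log2 difference of the 7 alpha subunits was -0.10 for AX+ME against SED, -0.0038 for ME and -0.11 for AX. Psma2, in column 8, shows the disagreement of the SED arrays: it had 5.12 and 5.10 in AX+ME, 5.34 and 5.12 in ME and 5.19 and 5.03 in AX, against 4.56 and 5.60 in SED. Its SED values lie on both sides of all the others, and its difference of AX+ME from SED was 0.03 ± 0.344 (SE).

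The 3 constitutive catalytic subunits showed no call in any comparison. Psmb5, which carries the chymotrypsin-like activity, had 4.32 and 4.11 in AX+ME, 4.42 and 4.13 in ME and 4.35 and 4.05 in AX, against 4.31 and 4.40 in SED. Psmb6, which carries the caspase-like activity, had 5.12 and 5.09 in AX+ME, 5.29 and 4.97 in ME and 5.16 and 4.93 in AX, against 5.43 and 5.05 in SED. Psmb7, which carries the trypsin-like activity, had 3.23 and 3.17 in AX+ME, 3.38 and 3.15 in ME and 3.27 and 3.04 in AX, against 3.26 and 3.48 in SED. All 3 probes lie in columns below 70. AX+ME overlapped SED for Psmb5 and Psmb6, and for Psmb7 both AX+ME samples lay just below both SED samples. The 95% interval of the AX+ME difference from SED was -0.45 to 0.17 for Psmb5, -0.41 to 0.13 for Psmb6 and -0.52 to 0.18 for Psmb7. A second Psmb5 probe in column 153, saturated on 8 of 8 arrays, gave -0.13, -0.06 and -0.14 for the comparisons of AX+ME, ME and AX with SED, beside -0.14, -0.08 and -0.15 for the probe used.

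Of the non-catalytic beta subunits, Psmb1 had the largest positive difference from SED after Psmc5 in AX+ME and in AX. It had 3.53 and 3.49 in AX+ME, 3.70 and 3.54 in ME and 3.51 and 3.45 in AX, against 3.26 and 2.80 in SED. Both SED samples were lowest, and they differed from each other by more than all 6 others did. The differences from SED were 0.48 for AX+ME, 0.58 for ME and 0.45 for AX (SE 0.12, adjusted p = 0.0792, 0.0835 and 0.106), so none passed. The probe lies in column 46.

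Other subunits of the regulatory particle have probes from column 70 on. Psmc4, an ATPase in column 117, had 3.68 and 3.64 in AX+ME, 3.67 and 3.65 in ME and 3.62 and 3.60 in AX, against 3.55 and 3.53 in SED. The SED samples were lowest, and its difference of AX+ME from SED was 0.12 (95% interval -0.01 to 0.25, adjusted p = 0.167). That sign was the opposite without levelling (-0.12). Psmd6, a lid subunit whose probe in column 72 borders on the uneven columns, had 3.38 and 3.32 in AX+ME, 3.45 and 3.43 in ME and 3.36 and 3.37 in AX, against 3.56 and 3.75 in SED. Its SED samples were highest, and the difference was -0.31 for AX+ME (adjusted p = 0.0821), -0.22 for ME (adjusted p = 0.201) and -0.29 for AX (adjusted p = 0.110). Psmd14, the deubiquitinase of the lid, in column 141, was flat: 1.62 and 1.63 in AX+ME, 1.63 and 1.61 in ME and 1.62 and 1.59 in AX, against 1.63 and 1.61 in SED.

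The immunoproteasome subunits Psmb8, Psmb9 and Psmb10 had lower values than SED in both dyes in each of the 3 groups, and none passed the test. The probe of Psmb9 lies in column 62, among the uneven columns, that of Psmb8 in column 75, close to them, and that of Psmb10 in column 88. Psmb8 had -0.93 and -1.03 in AX+ME, -0.86 and -1.02 in ME and -0.94 and -1.25 in AX, against -0.83 and -0.76 in SED. Psmb9 had -1.11 and -1.06 in AX+ME, -1.13 and -1.15 in ME and -1.12 and -1.17 in AX, against -0.97 and -0.95 in SED. Psmb10 had 3.82 and 3.79 in AX+ME, 4.00 and 3.86 in ME and 3.78 and 3.68 in AX, against 4.13 and 3.92 in SED. For Psmb8 and Psmb9 both SED samples lay above the 6 others, while Psmb10 overlapped between ME and SED. The smallest adjusted p among the 3 was 0.0998 for AX+ME, 0.144 for ME and 0.0782 for AX, each time beside differences of at most 0.30. A decrease in both dyes was common among all genes: 41%, 42.2% and 41.9% of those tested were lower in both dyes than in SED. The 7 microglial markers on the array held 0 called genes in the comparisons with SED, and their summed scaled signal was 38.7 to 39.0 in AX+ME, 41.0 to 41.9 in ME and 38.3 to 39.0 in AX, against 42.6 to 44.8 in SED. The columns of these markers are not given here, and their part in the immunoproteasome values was not tested.

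Activators open the core without ubiquitin, and none of the 4 measured was called. Psme1 and Psme2 encode the PA28 complex that assists antigen processing. The mean over the spots of Psme1 was 3.15 and 3.16 in AX+ME, 3.22 and 3.16 in ME and 3.16 and 3.12 in AX, against 3.18 and 3.43 in SED. ME overlapped SED, and the AX+ME and AX samples lay just below both SED samples. These SED means mix uneven spots. On SED replicate 2 the signal was 19621 to 24148 below column 70 and 15197 to 16211 from that column on. On SED replicate 1 it was 9348 to 13156 and 10158 to 10770. The order of the groups in the spots from column 70 on alone is not given here. Psme2, in column 138, had 3.58 and 3.54 in AX+ME, 3.71 and 3.70 in ME and 3.56 and 3.58 in AX, against 3.80 and 3.80 in SED. Its order of levels was SED, ME and then AX and AX+ME, which overlap, and its difference of AX+ME from SED was -0.24 ± 0.049 (SE, adjusted p = 0.0590). Psme3, the nuclear PA28 gamma, had 0.40 and 0.89 in AX+ME, 0.44 and 0.86 in ME and 0.39 and 0.74 in AX, against 0.70 and 1.58 in SED. Within each dye its SED sample was highest, but its difference turned positive without levelling (0.14, 0.06 and 0.07 for AX+ME, ME and AX), and its probe lies in column 7. Psme4, whose product PA200 caps the core in the nucleus, had -1.43 and -1.46 in AX+ME, -1.21 and -1.18 in ME and -1.26 and -1.37 in AX, against -0.75 and -1.19 in SED. Its 2 probes, in columns 41 and 44, gave differences of opposite sign for AX+ME against SED (-0.48 and 0.12). The inhibitor Psmf1 had -0.27 and -0.42 in AX+ME, -0.29 and -0.40 in ME and -0.39 and -0.60 in AX, against -0.33 and -0.31 in SED, with a difference of AX+ME from SED of -0.02 (95% interval -0.22 to 0.18).

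**Figure D4:**
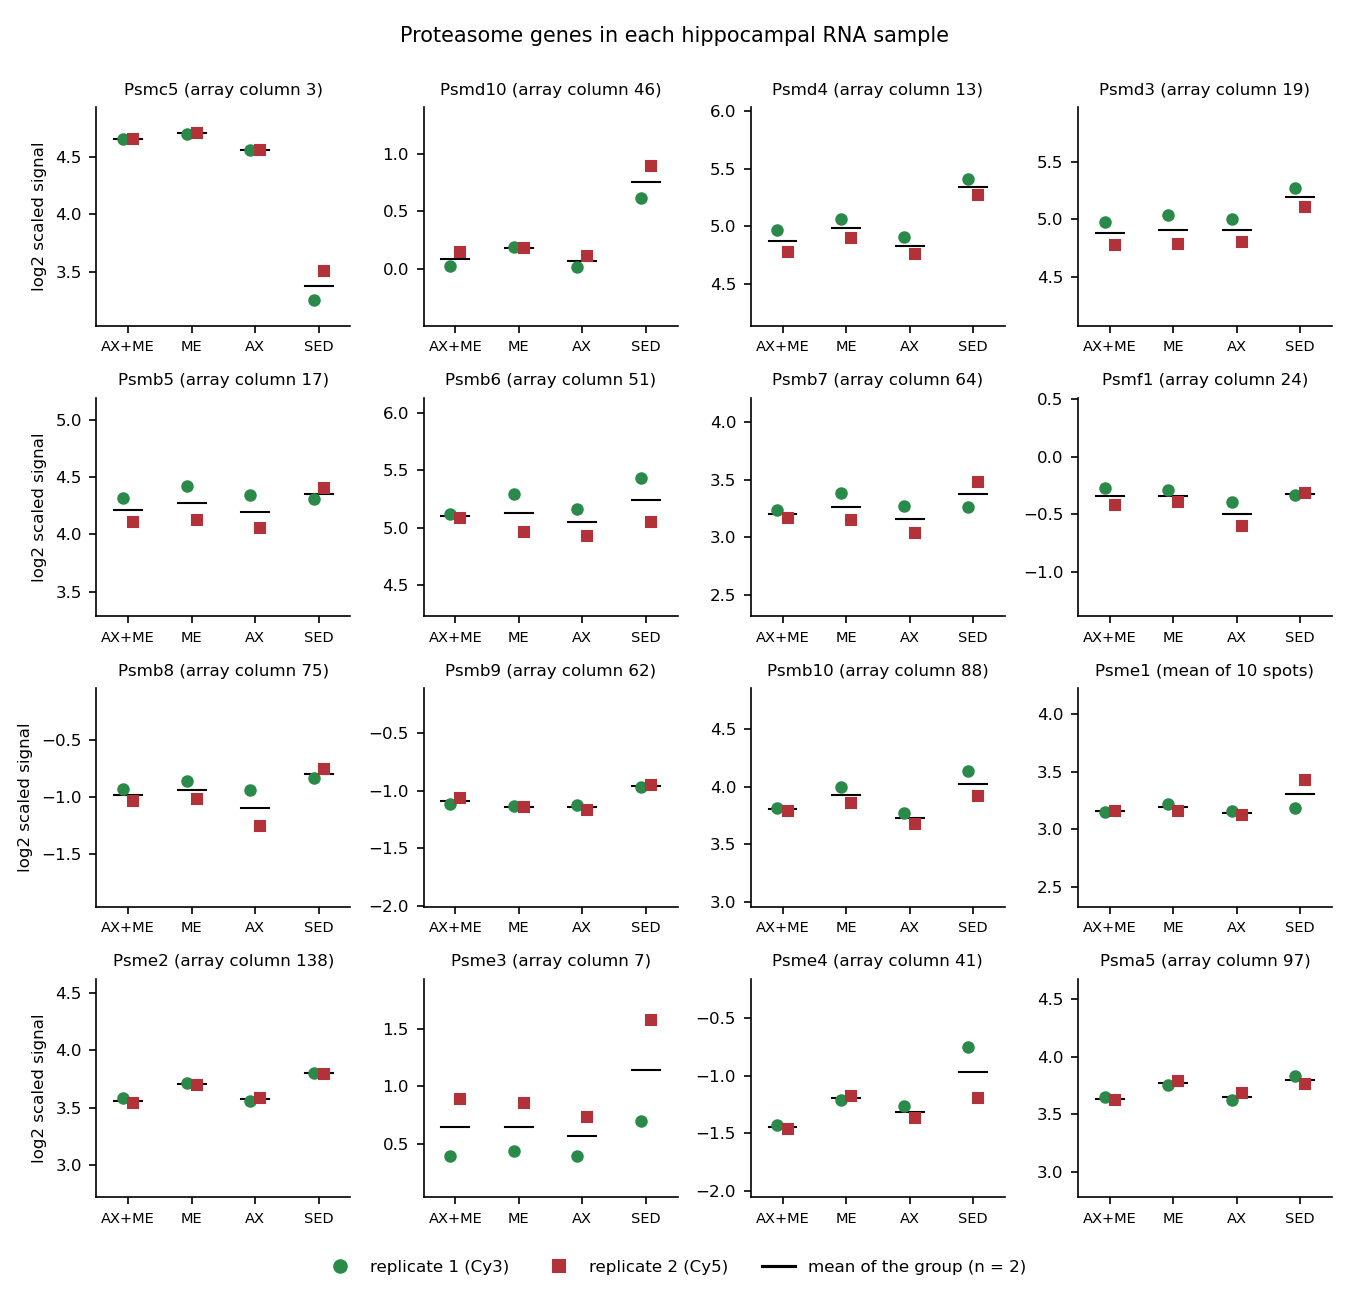
Log2 scaled signal (0 is the 75th percentile of the array) of 16 proteasome genes in each sample, with replicate 1 (Cy3) as green circles, replicate 2 (Cy5) as red squares and a bar at the group mean of 2. Each panel spans the same range. In the panel of Psmc5 both SED samples (3.25 and 3.50) sit far below the 6 others, which lie between 4.56 and 4.70.

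The assembly chaperones stand outside the finished particle. Psmg1 to Psmg4, which build the alpha ring, all have probes from column 70 on and were not called; the median difference of the 4 was -0.17 for AX+ME against SED, -0.06 for ME and -0.15 for AX. Psmd9, a chaperone of the ATPase ring, had differences of -0.30, -0.35 and -0.40 from its probe in column 5 and of 0.23, 0.22 and 0.18 from a probe in column 134. Neither was called, and the probes of this gene disagreed in sign in all 3 comparisons.

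As a group, the 31 constitutive subunits moved little. Their median log2 difference from SED was -0.10 for AX+ME, -0.02 for ME and -0.12 for AX. The medians of all genes tested were -0.04, -0.05 and -0.05, and those of the brightest class, to which 28 of the 31 belong, were -0.11, -0.05 and -0.11. For the 16 constitutive subunits from column 70 on the medians were -0.10, -0.02 and -0.11, and for all genes there -0.06, -0.05 and -0.06. Of the 48 members, 31, 24 and 35 were lower in both dyes for AX+ME, ME and AX, against 41%, 42.2% and 41.9% of all genes. Of these 48, 33 belong to the brightest class, whose shares in both dyes are not given here for these comparisons. Higher in both dyes were 28.1% of all genes for AX+ME, 23.9% for ME and 24.6% for AX.

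**Figure D5:**
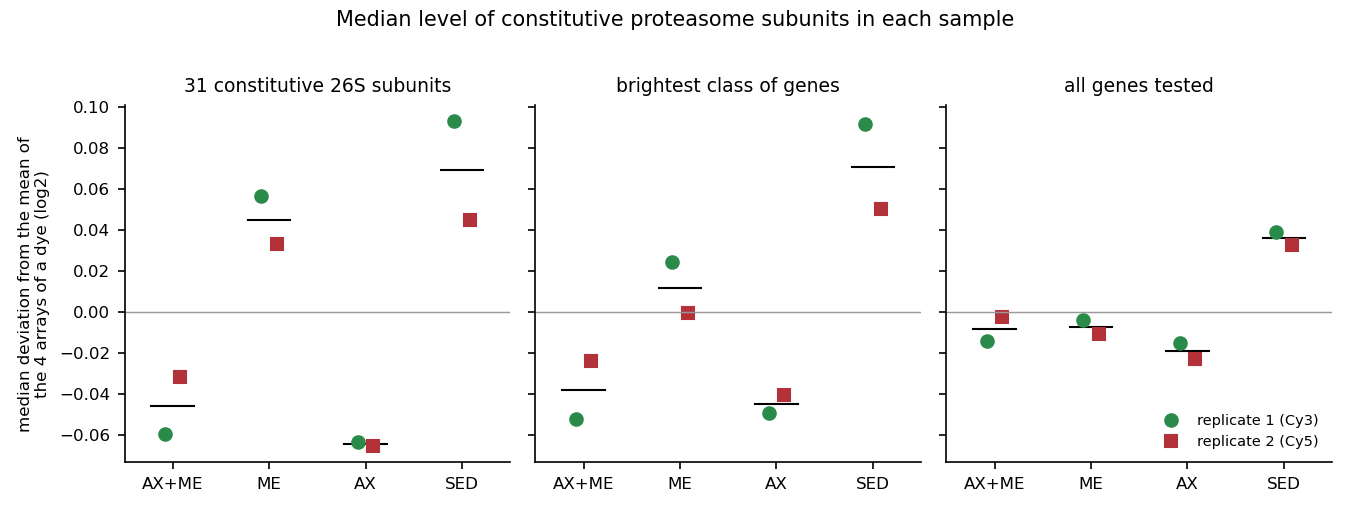
Median deviation from the mean of the 4 arrays of a dye (log2) in each sample, for 31 constitutive proteasome subunits, the brightest class of all genes tested and all genes tested, with replicate 1 (Cy3) in green, replicate 2 (Cy5) in red and a bar at the mean of the group (n = 2). The subunits sit between -0.07 and -0.03 in AX+ME and AX and between 0.03 and 0.09 in ME and SED.

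Comparisons of AX+ME with ME and with AX addressed whether astaxanthin adds to exercise and exercise to astaxanthin. Their differences leave out the SED samples. The spread behind their p-values and intervals came from all 8 samples, the uneven SED arrays included. In AX+ME against ME 0 members and 0% of all genes were called, while 2 members and 8.34% of all genes had an unadjusted p under 0.05. There 42 of the 48 members were lower in AX+ME and 34 were lower in both dyes, against 32.7% of all genes. Of the 6798 genes of the brightest class, 5188 were lower and 3437 were lower in both dyes. The median of the 31 constitutive subunits was -0.09, beside -0.01 for all genes and -0.05 for the brightest class. The largest drop was that of Psme4 (-0.25, adjusted p = 0.653), followed by those of Psmc6, an ATPase (-0.18 ± 0.057, SE, adjusted p = 0.567), and Psmg4 (-0.17, adjusted p = 0.603). Psmc6, in column 154, had 2.46 and 2.60 in AX+ME and 2.64 and 2.79 in ME. Within each dye its AX+ME sample was the lower one, and the groups did not overlap. The largest positive differences were those of the lid subunit Psmd13 (0.06), Psmb9 (0.05) and Psmd9 (0.05).

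In AX+ME against AX 0 members and 0% of all genes were called, and 0 members had an unadjusted p under 0.05, beside 6.03% of all genes. Here 30 members were higher and 18 lower, and 21 were higher and 10 lower in both dyes, against 32.3% and 25.8% of all genes. The constitutive median was 0.02, beside 0.01 for all genes and 0.01 for the brightest class. Psmf1 (0.15, 95% interval -0.04 to 0.35) and Psmc1 (0.12) had the largest positive differences and Psme4 (-0.13) and Psmg4 (-0.13) the largest negative ones. The second probe of Psmc1, saturated on 8 of 8 arrays, gave -0.01.

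The interaction asks whether the effect of exercise and astaxanthin together departs from the sum of their separate effects, and is the exercise difference on astaxanthin (AX+ME minus AX) less the exercise difference on placebo (ME minus SED). It called 1 member, Psmc5 (-1.23 ± 0.12, SE, adjusted p = 0.0487), beside 0.566% of all genes (0.0883% higher and 0.478% lower). At an unadjusted p under 0.05 it had 8 members, beside 14.6% of all genes. The level of Psmc5 was alike in AX+ME, ME and AX and lower in SED, so the 2 separate differences from SED sum to more than the joint one. Exercise averaged over both diets also called Psmc5 alone (0.71 ± 0.060, adjusted p = 0.0378, beside 0.684% of all genes). Both calls include the SED samples and were lost when any sample of the other groups was left out (adjusted p between 0.196 and 0.335). Astaxanthin averaged over both activity levels called 0 members, beside 0.732% of all genes (0.614% higher and 0.118% lower). Here 21 members had an unadjusted p under 0.05, beside 26.3% of all genes, and the smallest adjusted p was 0.0514 for Psmc5 (0.56) and 0.0556 for Psmd4 (-0.31). In that average 44 of 48 members were lower and 39 were lower in both dyes, while 3 were higher in both, against 39.2% and 28.7% of all genes. Lower in both dyes were 3907 of the 6798 genes of the brightest class. The constitutive median was -0.09 and that of the brightest class was -0.08.

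Genes that work with the proteasome were given from 3 lists. Of 10 partners tested, 2 were lower in AX+ME and in AX than in SED, beside 3.94% and 1.81% of all genes, and 0 were called in ME. They were Usp14, a deubiquitinase bound to the regulatory particle (column 75), and Txnl1, a thioredoxin-like protein bound to it (column 71). Usp14 had 3.87 and 3.88 in AX+ME, 3.94 and 3.98 in ME and 3.84 and 3.90 in AX, against 4.25 and 4.24 in SED. Its difference was -0.37 ± 0.050 for AX+ME (SE, adjusted p = 0.0364) and -0.38 for AX (adjusted p = 0.0414). Both probes lie next to the uneven columns. There Psmd6, Psmb8 and Psmg1 (column 74) deviated by 0.38, 0.34 and 0.12 in SED replicate 2. In SED replicate 1 they deviated by 0.16, 0.08 and 0.20. The part of position in these calls was not tested. The other 8 partners, the core maturation factor Pomp and the ubiquitin receptor Adrm1 among them, were not called. Of 16 genes for ubiquitin and its delivery, Uba6, a ubiquitin-activating enzyme (column 44), was higher in all 3 groups than in SED, by 1.16, 1.16 and 1.15 on the log2 scale, the only one of the 16 called higher, beside 3.77%, 1.9% and 2.16% of all genes. Vcp, the unfoldase that hands substrates to the proteasome (column 69), was lower by 0.40 in AX+ME (adjusted p = 0.0415) and by 0.45 in AX (adjusted p = 0.0425). Of all genes, 3.94% and 1.81% were called lower in these comparisons. The probes of Uba6 and Vcp lie among the uneven columns, and their differences without levelling are not given here. Of 13 genes that control proteasome expression, only Syvn1, a ubiquitin ligase of the endoplasmic reticulum (column 48), was called, in AX+ME (-0.46, adjusted p = 0.0488), beside 7.71% of all genes. Nfe2l1 (column 159) had -1.19 and -1.35 in AX+ME, -1.01 and -1.38 in ME and -1.18 and -1.30 in AX, against -1.12 and -1.37 in SED, and its groups overlap.

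Markers of cells that could accompany hippocampus also differed. Of 8 choroid plexus markers, 7 were lower in AX+ME, 5 in ME and 0 in AX than in SED, beside 3.94%, 1.04% and 1.81% of all genes. Their summed scaled signal was 53.4 to 55.4 in AX+ME, 51.4 to 62.4 in ME and 56.0 to 65.6 in AX, against 56.1 to 73.8 in SED, and 1 of them, Ttr, was saturated on 8 of 8 arrays. Of 4 pituitary markers tested, 1 was lower in AX+ME, 4 in ME and 1 in AX. The sum over the 5 pituitary markers on the array was 1.08 to 1.09 in AX+ME, 0.69 to 0.70 in ME and 1.12 to 1.16 in AX, against 1.55 to 1.65 in SED, and Tshb was not well above background on any array. Of 7 meningeal fibroblast markers, 0 were lower in AX+ME, 2 in ME and 1 in AX, and their sum was 26.5 to 27.7 in AX+ME, 26.8 to 27.1 in ME and 25.96 to 27.38 in AX, against 28.8 to 31.1 in SED. Of the 8 hippocampal neuron markers, only Zbtb20, in column 1, was called, lower in AX+ME (-0.43) and in ME (-0.51). Their sum was 58.8 to 60.5 in AX+ME, 60.6 to 65.2 in ME and 59.2 to 61.6 in AX, against 64.0 to 69.8 in SED. The pituitary, fibroblast and microglial sums of all 3 groups lay below both SED samples. So did the neuron sums of AX+ME and AX and the choroid plexus sums of AX+ME. All genes tested also had their highest medians in SED. Relative to the mean of a dye these were 0.039 and 0.033, against -0.023 to -0.0025 in the other samples. For the brightest class they were 0.092 and 0.050, against -0.052 to 0.024. The columns of the markers, Zbtb20 apart, are not given here, and the part of position in the sums was not tested. Nor was the part of the marked cells in the proteasome values.

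Because antioxidant response elements are the known route by which NRF1 and NRF2 act on proteasome genes, RefSeq promoter windows (GRCm38.p6, 250 bases before to 50 after the start) were searched on both strands for TGACNNNGC. A window was at hand for 42 of the 50 members, with 46 windows in all. The letters occurred in 6 of the 46 (13%), in 4 of 27 windows of constitutive subunits (14.8%) and in 0 of 3 of immunoproteasome subunits, against 4071 of 32851 windows of all genes (12.4%). The CCAAT letters, bound by NF-Y, occurred in 16 of the 46 (34.8%) against 37.4% of all. Psmc5, Psmd4 and Psmd10 had no match to TGACNNNGC. The 60 bases around the match are shown for the catalytic subunits Psmb5 (chr14:54618008-54618067, minus strand) and Psmb6 (chr11:70525323-70525382, plus strand), where it starts 47 and 9 bases before the transcription start, and for the ATPase Psmc6 (chr14:45329574-45329633, plus strand) and the lid subunit Psmd12 (chr11:107479278-107479337, plus strand), where it lies on the other strand. Capitals mark the match.
Psmb5: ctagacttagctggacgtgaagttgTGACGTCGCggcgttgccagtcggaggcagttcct
Psmb6: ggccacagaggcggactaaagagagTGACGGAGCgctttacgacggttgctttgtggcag
Psmc6: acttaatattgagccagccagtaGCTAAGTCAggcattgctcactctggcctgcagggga
Psmd12: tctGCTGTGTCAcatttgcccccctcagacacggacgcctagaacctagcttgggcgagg
None of these 4 genes was called in any comparison. Their differences of AX+ME from SED were -0.14 for Psmb5 and Psmb6, -0.23 for Psmc6 and -0.11 for Psmd12. A match also occurred for Psmd9 and Psme4, which were not called either. The differences of Psmd9 and Psme4 were -0.30 and -0.48 from the probes used, and 0.23 and 0.12 from their other probes.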

How the data were processed

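Total RNA from hippocampus was measured in 8 samples. Per the file headers and the submitters' processing notes, Agilent Feature Extraction 11.0.1.1 made the deposited intensity values, subtracting background and levelling each array; per the labels, 1 dye held the sample. Processed intensity in that channel was scaled to the 75th percentile of each array's non-control probes, floored at 0.001 and put on a log2 scale. Outlier spots were left out and spots of a probe averaged. A probe was kept if some group had it well above background in its 2 samples, with 1 probe per gene. limma 3.58.1 (R 4.3.3) was fitted to groups plus dye with 3 residual degrees of freedom, with Benjamini-Hochberg adjustment over 27192 genes, and was tested on simulated data. The dye term also serves as the replicate block, and the residual correlations of same-dye samples lay between 0.0846 and 0.174. Genes named are those called, the 3 largest positive and negative differences of the same sign in both dyes per comparison, and the catalytic subunits, activators and inhibitor; further genes were chosen after their values were seen. Members and lists were chosen with earlier results of these data known. The number of arrays limits the precision, and array position and group cannot be told apart. Alternatives changed background, levelling, scaling, filters, probe choice, columns, the dye term and the samples.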

Additional observations from a re-analysis of the deposited data

Results flagged for a closer look

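The effect of exercise on Psmc5 passed a test of the difference between the diets, by a narrow margin. The difference of AX+ME from AX less that of ME from SED was -1.23 on the log2 scale (limma, adjusted p = 0.0487). Psmc5 was 4.65 and 4.65 in AX+ME, 4.70 and 4.70 in ME and 4.56 and 4.56 in AX, against 3.25 and 3.50 in SED. The adjusted p was between 0.222 and 0.335 when any 1 of the AX+ME, ME or AX samples was left out and between 0.0204 and 0.0288 when 1 SED sample was. It passed in 7 of 9 other processing settings, with adjusted p between 0.0117 and 0.117 over the 9. Psmc5 has 1 probe, so settings that change only the choice of probe could not change this difference. Its probe lies in column 3, in the columns where both SED arrays were uneven, and the part of that unevenness in this value was not tested.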

How the results depend on the processing

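Psmc5 stayed called against SED under all 9 other processing settings that kept its probe. Because it has 1 probe, settings that change only the choice of probe could not change its difference. With the mean of all probes it was 1.32 for ME, as in the main fit. The alternatives of normexp on median signals, no levelling and rescaling from column 70 on were chosen after seeing the data. Counts of members called below are given without the share of all genes at the same setting, so they are not a result about the members. The counts are for AX+ME, ME and AX against SED unless named. They were 0, 0 and 0 from column 70 on, also when rescaled there, and the interaction and exercise counts were 0 there too. Psmc5, Psmd4 and Psmd3 have no probe in those columns and drop out. Without levelling AX+ME had 7, ME 1 and astaxanthin 1. With normexp AX+ME had 12, AX 8 and astaxanthin 3. With no filter on dim probes AX+ME had 2, ME 1, and the interaction and exercise 0. With probes well above background on all 8 arrays AX had 5 and astaxanthin 2. With quantile normalization AX+ME had 2 and astaxanthin 1. With no replicate block AX+ME had 2, ME 1 and astaxanthin 1. The mean of all probes gave 0 for the interaction.

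With 1 sample left out, counts ranged from 0 to 14 for AX+ME, 0 to 11 for ME, 0 to 13 for AX, 0 to 8 for the interaction, 0 to 6 for exercise and 0 to 9 for astaxanthin, the highest each time without SED replicate 1. The constitutive median ranged from -0.13 to -0.09 for AX+ME, -0.056 to -0.0046 for ME, -0.14 to -0.09 for AX, 0.0051 to 0.045 for the interaction, -0.014 to 0.018 for exercise and -0.12 to -0.08 for astaxanthin.

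The constitutive median for ME was -0.0095 with quantile normalization, -0.11 with normexp, 0.037 rescaled from column 70 on and -0.12 without levelling. For AX it was -0.044, -0.19, -0.0505 and -0.20 under these settings. For the interaction it was 0.011, 0.12, -0.034 and 0.13, and 0.018 from column 70 on, 0.031 with saturated probes allowed and 0.015 with the mean of all probes. For exercise it was 0.017, -0.036, 0.036 and -0.040, and for astaxanthin -0.028 with quantile normalization and -0.053 rescaled.

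Some differences changed sign. With normexp, Psme3 was 0.094 for AX+ME, 0.000136 for ME, 0.053 for AX and 0.020 for exercise, Psmd4 was 0.0091 for AX+ME and 0.10 for ME, Psmd3 was 0.31 for AX+ME, and Psmc4 was -0.11 for AX+ME, -0.18 for AX and -0.0985 for astaxanthin. For the interaction Psmd9 was -0.026 and Psmg4 was 0.027. Without levelling, Psme3 was 0.14 for AX+ME, 0.057 for ME, 0.069 for AX and 0.064 for exercise, Psmd4 was 0.064 for ME, Psmd3 was 0.32 for AX+ME, Psmc4 was -0.12 for AX+ME, -0.19 for AX and -0.11 for astaxanthin, and Psmd8 was -0.0066 for exercise. For the interaction Psmd9 was -0.077 and Psmg4 was 0.041. From column 70 on Psmd10 was 0.088 for ME, and for the interaction Psmd10 was -0.19 and Psmd9 -0.17. Rescaled there, Psmd10 was 0.14 for ME, 0.033 for AX and 0.022 for exercise, and for the interaction Psmd10 was -0.24 and Psmd9 -0.22. With saturated probes allowed Psmc1 was -0.0099 for AX+ME against AX. The cause of these changes was not tested, apart from the changes of probe that the settings from column 70 on and with saturated probes make.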
